A study of Mus musculus with 9 samples.

Results

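Chondroitin sulfate proteoglycans and their partners form much of the extracellular matrix of the brain, and 10 of their genes were described here, out of 31053 genes listed in the count tables. The members were chosen by name and function: the lecticans Acan, Bcan, Ncan and Vcan, the link proteins Hapln1, Hapln2 and Hapln4, the cross-linker Tnr, and the membrane proteoglycans Ptprz1 and Cspg5. The rule used no measured value, but the members were chosen with earlier results of these data known. Single nuclei were profiled from dissected cortex and hippocampus, pooled within each animal's sample, of 9 wild-type male C57BL/6 mice in 3 groups of 3, all of which had received an adeno-associated virus (AAV) into the retro-orbital sinus 8 weeks before tissue collection. Young_EGFP mice were 5 months old and received AAV-EGFP, Aged_EGFP mice were 19 months old and received AAV-EGFP, and Aged_B3GNT3 mice were 19 months old and received AAV-B3GNT3. The virus used the AAV-PHP.V1 capsid and a short CLDN5 promoter to favour brain endothelial cells, and the B3GNT3 construct also carried EGFP, so that both the control and the treated mice carried virus and the nuclei of other cell types were not its intended target. B3GNT3 is a glycosyltransferase that extends mucin-type O-glycans, a class of sugar chain distinct from the chondroitin sulfate carried by these proteoglycans.

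Lecticans bind the long sugar polymer hyaluronan at one end and tenascins at the other, and link proteins lock the lectican to the hyaluronan. Around some neurons, best known for the fast-spiking interneurons that express parvalbumin, this mesh condenses into the perineuronal net, which closes periods of plasticity and stabilises synapses. Between the nets a looser matrix made largely by astrocytes and oligodendrocyte precursor cells (OPCs) fills the neuropil, and a related matrix surrounds the nodes of Ranvier on myelinated axons.

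The 10 genes lay on 7 chromosomes of the mouse genome (GRCm38, GENCODE annotation), and each lectican gene lay next to a link protein gene. Bcan (chr3:87987531-88000230) and Hapln2 (chr3:88021750-88027583) were 21519 bp apart on the same strand, Ncan (chr8:70093085-70120873) and Hapln4 (chr8:70083457-70090862) were 2222 bp apart, and Hapln1 (chr13:89539796-89611652) and Vcan (chr13:89655312-89742509) were 43659 bp apart, with no annotated gene between the members of any of these pairs. Acan (chr7:79053483-79115099) lay 2 bp from Hapln3, a link protein gene that is not among the 10. Tnr (chr1:159523769-159931729), Ptprz1 (chr6:22875502-23052916) and Cspg5 (chr9:110243783-110262576) had no other member beside them. An antisense gene that was also counted, Gm38039, overlapped exons of Tnr on the opposite strand, and Gm4117 overlapped Vcan outside its exons. The counts of these pairs rest on how the authors' counting treated strand and introns, which is not given in the sources used here.

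The promoters of the neighbours Bcan and Hapln2 are shown because these genes differed in the class of nuclei in which they were highest, and those of Hapln1 and Vcan because both were highest among interneurons in the same type. Each is the RefSeq stretch (GRCm38.p6) around a transcript start that RefSeq gives, written 5′ to 3′ along the gene. That start can differ from the end of the gene positions given here: the Hapln1 stretch lies inside the gene as positioned, and the Bcan stretch lies wholly upstream of it. RefSeq promoters were found for 8 of the 10 members. Capitals mark every match on either strand to 4 motifs. The SOX-type core was searched as AACAAT, the kind of site that SOX factors bind, and the E-box as CAGCTG, which basic helix-loop-helix factors bind. The GC box was searched as GGGCGG, typical of promoters that lack other core motifs, and the TATA box as TATAAA, which sits before the start of some genes. No matches overlapped in these stretches.
Bcan promoter (chr3:88000307-88000606, - strand): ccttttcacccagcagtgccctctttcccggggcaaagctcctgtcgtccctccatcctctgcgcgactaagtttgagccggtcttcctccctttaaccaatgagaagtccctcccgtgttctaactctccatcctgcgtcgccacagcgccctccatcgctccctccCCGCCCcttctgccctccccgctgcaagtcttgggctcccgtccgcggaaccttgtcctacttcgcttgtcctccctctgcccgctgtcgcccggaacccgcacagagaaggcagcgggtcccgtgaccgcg
Hapln2 promoter (chr3:88027462-88027761, - strand): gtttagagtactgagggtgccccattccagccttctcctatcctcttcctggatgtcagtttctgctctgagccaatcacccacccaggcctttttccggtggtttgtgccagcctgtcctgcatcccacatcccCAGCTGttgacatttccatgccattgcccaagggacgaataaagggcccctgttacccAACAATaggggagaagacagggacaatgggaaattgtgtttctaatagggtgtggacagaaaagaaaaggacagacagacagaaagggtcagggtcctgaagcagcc
Hapln1 promoter (chr13:89540386-89540685, + strand): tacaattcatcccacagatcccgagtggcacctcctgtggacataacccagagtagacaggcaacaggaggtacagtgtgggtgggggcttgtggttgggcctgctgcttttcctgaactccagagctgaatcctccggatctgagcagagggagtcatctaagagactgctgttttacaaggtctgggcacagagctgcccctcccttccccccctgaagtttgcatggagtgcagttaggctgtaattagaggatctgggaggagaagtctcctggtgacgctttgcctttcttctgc
Vcan promoter (chr13:89742463-89742762, - strand): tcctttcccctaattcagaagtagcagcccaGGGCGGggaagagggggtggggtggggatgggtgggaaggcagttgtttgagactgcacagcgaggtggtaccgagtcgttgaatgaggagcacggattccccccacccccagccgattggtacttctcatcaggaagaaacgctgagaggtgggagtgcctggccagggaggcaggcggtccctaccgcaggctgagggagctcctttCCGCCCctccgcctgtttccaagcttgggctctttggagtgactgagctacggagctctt
Of 32851 promoters, 10.7% held the SOX-type core, 16.3% the E-box, 35.7% the GC box and 13.6% the TATA box. The Bcan stretch held 1 GC box and 24 CG pairs, whereas the Hapln2 stretch held 1 SOX-type core, 1 E-box and 2 CG pairs, beside a median of 7 CG pairs over all promoters. The Hapln1 stretch held none of the 4 motifs and 3 CG pairs, and the Vcan stretch held 2 GC boxes and 12 CG pairs.

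The libraries held 47332047 to 79964605 UMIs (unique molecular identifiers, each standing for 1 captured RNA molecule), and 70236 of 77823 barcodes were kept. Nuclei were clustered without the members and without 55 related matrix genes, and clusters were named from marker genes, so that each class name below stands for nuclei that resemble that class. The tested classes were excitatory neurons (20478 nuclei), interneurons (4084, of which 1297 were Pvalb interneurons), astrocytes (8420), oligodendrocytes (20385) and OPCs (2663). The interneurons pooled the named Pvalb, Sst, Vip and Lamp5 types out of 10999 inhibitory nuclei. Left out were 4154 striatal-like spiny neurons and the unnamed inhibitory sub-clusters. Of the Pvalb interneurons, 130 nuclei (sub-cluster 17) were named on 3 of 7 markers. RNA from other cells that floats free into the droplets was estimated for each class and library from marker genes that the class should lack, and reached 9.64 to 20.6% of UMIs in excitatory neurons, 7.92 to 16.3% in interneurons, 15.5 to 29.3% in astrocytes, 21.4 to 34.8% in OPCs and 21.1 to 35.9% in oligodendrocytes. The profile subtracted was the sum over all deposited barcodes of a library, so it also held each class's own RNA. Subtraction can therefore remove too much, and counts were not let become negative. The estimate differed between the groups. In excitatory neurons it was 18.5 to 20.6% in Young_EGFP, 9.64 to 13.3% in Aged_EGFP and 15.3 to 19.4% in Aged_B3GNT3, and in astrocytes it was 26.4 to 29.3%, 15.5 to 28.6% and 21.5 to 25.4%. Between 2 libraries 726 barcodes were shared, and 8 were shared by 3 libraries.

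Levels by class are given as UMIs per 1e+06 UMIs (CPM) of the summed class, as the mean ± SD over all 9 libraries, and are a description without a test, since the same nuclei defined the classes. Levels in microglia, which should lack these genes, are given beside them. The free RNA estimate was 26.9 to 50.6% of UMIs in microglia, above that of the neurons in every library, so that a microglial level is not the level that free RNA gives in another class. Among the classes for which free RNA was estimated, the highest class of each of the 10 members was the same after subtraction. The excitatory sub-types had no such estimate and were not part of that comparison.

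**Figure D1:**
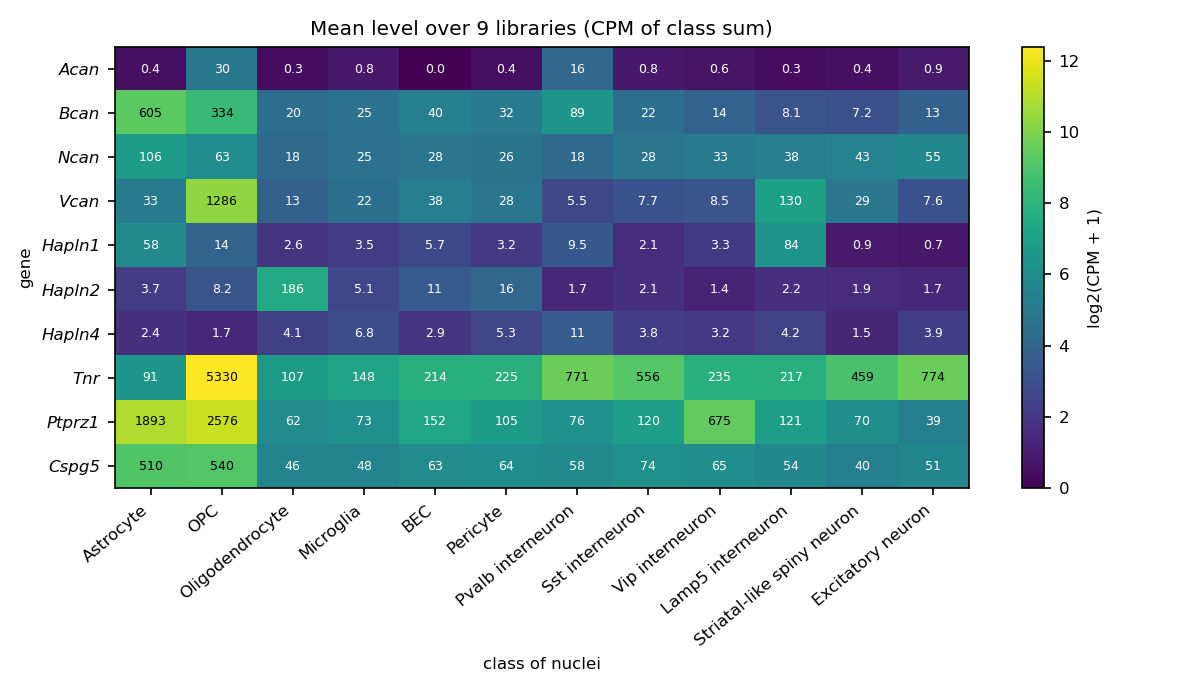
Mean level of the 10 genes (rows) in 12 classes of nuclei (columns), as CPM of the class sum averaged over 9 libraries; colour shows log2(CPM + 1) and the number in each cell is the CPM. OPCs and astrocytes hold the brightest cells, Hapln2 is brightest in oligodendrocytes, and Acan is seen in OPCs and Pvalb interneurons.

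Among the lecticans, Acan, which encodes aggrecan, the core proteoglycan of the perineuronal net, was highest in OPCs (29.8 ± 9.92 CPM, SD, n = 9) and next in Pvalb interneurons (16.2 ± 5.44 CPM). The 9 libraries ran from 14.7 to 46.98 CPM in OPCs and from 7.66 to 23.5 CPM in Pvalb interneurons, so that these neighbours overlapped. In Sst, Vip and Lamp5 interneurons, in excitatory neurons and in microglia the mean stayed at or under 0.854 CPM. No Acan UMI was found among 2123675 UMIs of brain endothelial cells (BECs), which allows a level of up to 1.41 CPM.

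Bcan, which encodes brevican, a short lectican of the adult neuropil, was highest in astrocytes (605.5 ± 94.6 CPM) and next in OPCs (334.1 ± 85.2 CPM), and the lowest astrocyte library (433.7 CPM) lay above the highest OPC library (426.8 CPM). Pvalb interneurons followed with 89.0 ± 18.8 CPM, beside 22.0 ± 6.12 CPM in Sst interneurons and 25.5 ± 11.996 CPM in microglia. Within the excitatory neurons, whose mean was 13.4 CPM, a sub-cluster led by hippocampal CA1 genes such as Fibcd1 (sub-cluster 6) reached 45.5 CPM and another that carried markers of CA3 and CA2 (sub-cluster 15) reached 40.1 CPM. Both were left unnamed because markers of more than 1 type were present.

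Ncan, which encodes neurocan, a lectican abundant in development, was highest in astrocytes (105.8 ± 32.0 CPM), and the deep-layer excitatory types L6b, L6 CT and L5 ET followed at 70.8 ± 19.5, 68.6 ± 14.0 and 67.2 ± 15.8 CPM, with overlapping libraries. Pvalb interneurons held 18.1 ± 5.69 CPM, beside 24.6 ± 9.05 CPM in microglia. Vcan, which encodes versican, the largest lectican, was highest in OPCs (1286 ± 258 CPM) and next in Lamp5 interneurons (130.4 ± 52.3 CPM), beside 22.0 CPM in microglia.

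The link proteins each followed a different class. Hapln1, the link protein of cartilage and of many nets, was highest in Lamp5 interneurons (84.2 ± 29.6 CPM) and astrocytes (57.8 ± 15.6 CPM), which overlapped. OPCs followed at 14.2 ± 6.35 CPM and Pvalb interneurons at 9.53 ± 3.43 CPM, beside 3.46 ± 2.91 CPM in microglia. Among the Lamp5 interneurons, Hapln1 and its chromosome neighbour Vcan were both highest in one group of nuclei, inhibitory sub-cluster 16, at 182.5 and 306.1 CPM, beside 61.3 and 88.4 CPM in sub-cluster 4. Hapln2, the link protein of the nodes of Ranvier, was highest in oligodendrocytes (185.9 ± 48.2 CPM), and the next class, pericytes, held 16.1 ± 9.36 CPM. Its neighbour Bcan was at 20.4 ± 8.18 CPM in oligodendrocytes, which did not differ beyond the spread from microglia.

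Hapln4, a link protein that pairs with brevican at perisomatic synapses, was sparse, and its highest class was Pvalb interneurons (11.1 ± 2.18 CPM, from 152 UMIs), followed by microglia (6.81 ± 2.51 CPM) and the L5 ET excitatory type (6.15 ± 1.77 CPM). The libraries of these 3 classes overlapped, from 7.11 to 14.7 CPM in Pvalb interneurons and from 4.17 to 12.99 CPM in microglia.

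Tnr, which encodes tenascin-R, the cross-linker that ties lecticans together, reached 5330 ± 596 CPM in OPCs. Dentate granule neurons (1162 ± 126 CPM) and L2/3 IT neurons (928.5 ± 136 CPM) came next, with Pvalb interneurons at 771.2 ± 82.1 CPM. In astrocytes (90.8 CPM) and oligodendrocytes (107.3 CPM) it was under its level in microglia (147.9 ± 43.9 CPM), and the free RNA estimate took up all of it in both classes, with a mean of 0 CPM after subtraction.

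The membrane proteoglycans were shared by OPCs and astrocytes. Ptprz1, a receptor phosphatase whose secreted form is phosphacan, was at 2576 ± 430 CPM in OPCs and 1893 ± 285 CPM in astrocytes, and then at 674.9 ± 99.4 CPM in Vip interneurons, well apart from the 121.5 ± 19.1 CPM of Lamp5 interneurons. Cspg5, or neuroglycan C, was at 539.9 ± 137 CPM in OPCs and 509.6 ± 126 CPM in astrocytes, which did not differ beyond their spread. The other named classes held 29.5 to 73.9 CPM of Cspg5, beside 47.8 ± 18.95 CPM in microglia.

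As a share of nuclei, after each nucleus had been thinned to 2000 UMIs, an Acan UMI was found in 5.62% of OPCs and 2.82% of Pvalb interneurons, beside 0.168% of microglia. Without thinning these shares were 11.6%, 12.7% and 0.104%, at median depths of 4265, 9835 and 1690 UMIs. Hapln1 was found in 13.6% of thinned Lamp5 interneurons and 0.520% of microglia. Hapln4 was found in 2.02% of thinned Pvalb interneurons and 1.27% of microglia, which lay close together. Of 1919 microglia 643 were deep enough to be thinned, and of 1297 Pvalb interneurons 1294 were.

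Across 17 named classes and types, with 13189 genes compared, the gene whose pattern was most like that of a member was never another member. The measure was Pearson's r of log2(CPM + 1), and the classes share libraries and depth. Tnr was nearest to Gm38039 (r = 0.96), the antisense gene that overlaps its exons, and then to Opcml (0.87). Hapln2 was nearest to Gm12324 and Gm12828 (both 0.99), Bcan to Vegfa and Palld (both 0.91), and Cspg5 to Car8 and Cyp2j8 (both 0.93). Acan was nearest to Gm26633 (0.91) and Gpnmb (0.88), Ncan to Adgrl1 (0.87) and Extl1 (0.85), and Vcan to Adamtsl3 (0.87) and Frmd7 (0.86). Hapln1 was nearest to Tmem55a (0.89) and 6530411M01Rik (0.85), Hapln4 to Fer (0.82) and Mpc1 (0.81), and Ptprz1 to Zim1 (0.91) and Gas1 (0.87). Between members the likest pair was Bcan and Cspg5 (r = 0.85).

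To ask how these genes differed with age, Aged_EGFP was compared with Young_EGFP on summed UMIs per library in each of the 6 tested classes, by edgeR's quasi-likelihood test with Benjamini-Hochberg adjustment over all genes of the class. Of 53 pairs of member and class that passed the filter on low counts, 8 were lower and 1 was higher in Aged_EGFP at an adjusted p under 0.05. The values below are CPM scaled by the TMM library factors (0.905 to 1.08), and log2 fold changes carry their standard error (SE). Members whose Young_EGFP and Aged_EGFP libraries did not overlap numbered 3 of 10 in excitatory neurons (35.9% of all genes), 2 of 9 in interneurons (27%), 2 of 8 in Pvalb interneurons (22.2%), 2 of 8 in astrocytes (30%), 3 of 9 in oligodendrocytes (38.2%) and 1 of 9 in OPCs (21.8%). Within a class, fewer RNA molecules per nucleus and fewer nuclei of a sub-type that expresses the gene cannot be told apart from a sum.

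**Figure D2:**
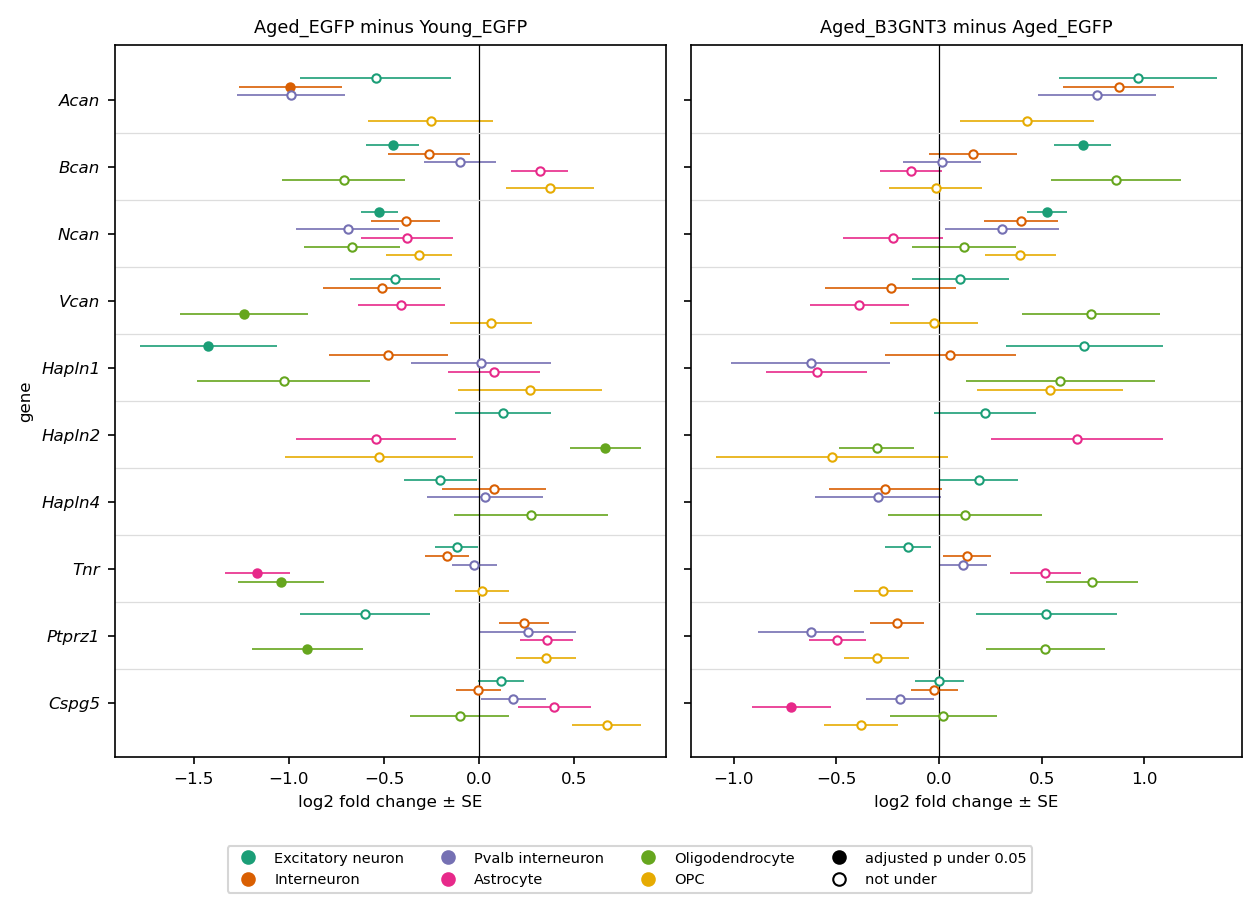
Log2 fold change ± SE of the 10 genes (rows) with ageing (left) and with AAV-B3GNT3 (right), 1 point for each of the 6 tested classes; filled points had an adjusted p under 0.05 in edgeR's test. Of the 53 points in each panel, 9 are filled on the left and 3 on the right, and both comparisons use the same Aged_EGFP libraries.

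In excitatory neurons 3 of 10 members, Ncan, Bcan and Hapln1, were lower in Aged_EGFP. Of all 16897 genes tested 14.1% were called in either direction, and 6.72% of all 16897 were called lower. The median of the 10 members was -0.45 on the log2 scale beside 0.02 over all genes. Ncan was at 60.7, 58.5 and 62.0 CPM in the Young_EGFP libraries, 45.2, 39.1 and 41.8 CPM in Aged_EGFP and 62.4, 64.5 and 54.9 CPM in Aged_B3GNT3. Each Aged_EGFP library lay under each library of the other groups. With age Ncan fell by 0.52 on the log2 scale (SE 0.10, adjusted p = 0.00936, edgeR), and after subtraction of the free RNA estimate the difference was -0.56 (adjusted p = 0.0103). The call was lost only without Young_EGFP replicate 3 (adjusted p = 0.0539).

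The lower Ncan level in Aged_EGFP was seen in 14 of the 15 excitatory sub-types that had at least 10 nuclei in every library. Each was compared as a mean with no test. The sub-types share libraries and free RNA, so they are not independent of each other. Bcan, whose call was lost on subtraction of free RNA, was lower in 13 of the 15. The 3 sub-clusters led by hippocampal genes (dentate granule, 6 and 15) made up 13.4 to 18.1% of excitatory nuclei in Young_EGFP, 6.74 to 15.2% in Aged_EGFP and 10.6 to 22.6% in Aged_B3GNT3. Without them the Ncan difference was -0.57 (adjusted p = 0.00734, edgeR). That alternative was chosen after the data had been seen.

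Bcan in excitatory neurons was at 15.8, 12.7 and 12.6 CPM in Young_EGFP, 9.5, 11.1 and 9.3 CPM in Aged_EGFP, and 18.004, 15.6 and 15.1 CPM in Aged_B3GNT3. The Aged_EGFP libraries again lay under all others, and the log2 difference with age was -0.45 (SE 0.14, adjusted p = 0.0468). Bcan was at 25.5 CPM in microglia, where the free RNA estimate was 26.9 to 50.6% of UMIs against 9.64 to 20.6% here. After the free RNA estimate had been subtracted its mean was 4.05 CPM in place of 13.4 CPM and the difference with age was 1.44 (adjusted p = 0.297). Without the 3 hippocampal sub-clusters it was -0.38 (adjusted p = 0.149), and the call was lost on leaving out any library but Aged_B3GNT3 replicate 3 (adjusted p 0.0569 to 0.154). It was also lost without the low-count filter, with only the 2 groups compared in the fit and with a replicate block (adjusted p 0.0532, 0.0688 and 0.0546).

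Hapln1 in excitatory neurons rested on few molecules, with 27, 30 and 30 UMIs in the Young_EGFP libraries, 15, 9 and 9 in Aged_EGFP and 17, 12 and 20 in Aged_B3GNT3. Its log2 difference with age was -1.42 (SE 0.36, adjusted p = 0.0246). The level of 0.747 CPM was under the 3.46 CPM of microglia and was 0 CPM after subtraction of free RNA, and the call was lost without any one of the Young_EGFP libraries or without Aged_EGFP replicate 2 or 3 (adjusted p 0.0510 to 0.106). Astrocyte markers moved with these genes in the excitatory neurons: 4 of 7 were called lower with age, with a median log2 change of -0.95, and their summed level ran from 601.1 to 750.5 CPM in Young_EGFP, 570.2 to 606.2 CPM in Aged_EGFP and 589.6 to 639.3 CPM in Aged_B3GNT3. Of 7 oligodendrocyte markers 2 were called lower, and their sum ran from 192.4 to 234.8 CPM in Young_EGFP, 115.7 to 160.3 CPM in Aged_EGFP and 192.6 to 228.8 CPM in Aged_B3GNT3, lowest in Aged_EGFP as were Ncan and Bcan. The summed OPC markers ran from 159.9 to 212.7 CPM in Young_EGFP and from 147.0 to 234.0 CPM in Aged_EGFP, which overlapped. Of 6 OPC markers tested 1 was called lower with age, with a median log2 change of -0.33. All markers of these lists were detected. Their part in the Ncan, Bcan and Hapln1 results was not tested beyond the subtraction.

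In interneurons Acan was the 1 of 9 tested members that was called with age (background 5.6% of 12899 genes, with 2.5% lower), and the median of the 9 was -0.26 beside 0.0055 over all genes. That background rests on 722 genes. Leaving out 1 library gave from 8 genes, without Aged_EGFP replicate 2, to 1358, without Aged_EGFP replicate 1. Acan was at 9.3, 6.4 and 7.3 CPM in Young_EGFP, 4.2, 4.3 and 3.1 CPM in Aged_EGFP and 8.2, 6.8 and 6.3 CPM in Aged_B3GNT3. The Aged_EGFP libraries lay under all of the others, and the log2 difference with age was -0.99 (SE 0.27, adjusted p = 0.0431). The counts were 26 to 38 UMIs per Young_EGFP library and 14 to 24 per Aged_EGFP library. Markers of some other cells moved with Acan in the interneurons. Of these, 2 of 7 oligodendrocyte markers and 1 of 6 tested excitatory neuron markers were called lower with age. The 7 astrocyte markers, of which 0 were called, had a median log2 change of -0.65. The oligodendrocyte markers summed to 165.4 to 199.5 CPM in Young_EGFP, 93.5 to 135.7 CPM in Aged_EGFP and 138.8 to 175.4 CPM in Aged_B3GNT3. The OPC markers, from the class of highest Acan, summed to 905.3 to 953.2 CPM in Young_EGFP and 892.9 to 991.8 CPM in Aged_EGFP, which overlapped. Of 3 OPC markers tested 0 were called with age, with a median log2 change of -0.30. The part of all these markers in the Acan result was not tested beyond the subtraction of free RNA given below.

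The same gene in the Pvalb interneurons alone, which are part of the interneurons, was at 23.2, 17.6 and 20.3 CPM in Young_EGFP, 14.5, 10.2 and 7.6 CPM in Aged_EGFP and 21.5, 16.0 and 15.7 CPM in Aged_B3GNT3. The Young_EGFP and Aged_EGFP groups did not overlap and the log2 difference was also -0.99 (SE 0.28), but it did not pass the threshold (adjusted p = 0.0829, edgeR). Of 8 members tested in Pvalb interneurons 0 were called by edgeR or by DESeq2 (background 1.08%). Acan and Ncan, 2 of the 8, had an unadjusted p under 0.05 (background 19.2%), and both had groups that did not overlap (background 22.2%). Pvalb interneurons made up 30.8 to 36.0% of interneurons in Young_EGFP, 24.2 to 31.0% in Aged_EGFP and 33.3 to 34.9% in Aged_B3GNT3, so that the share of the class that carries Acan moved with its pooled level. The pooled call was lost without Young_EGFP replicate 1, 2 or 3, Aged_EGFP replicate 2 or 3 or Aged_B3GNT3 replicate 1 (adjusted p 0.0562 to 0.152), and after subtraction of free RNA the difference was -1.11 (adjusted p = 0.0521). It was also lost by DESeq2 (adjusted p = 0.0909), with no upper limit on genes per nucleus (0.0545), with only the 2 groups compared in the fit (0.0547) and with a replicate block (0.0521).

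**Figure D3:**
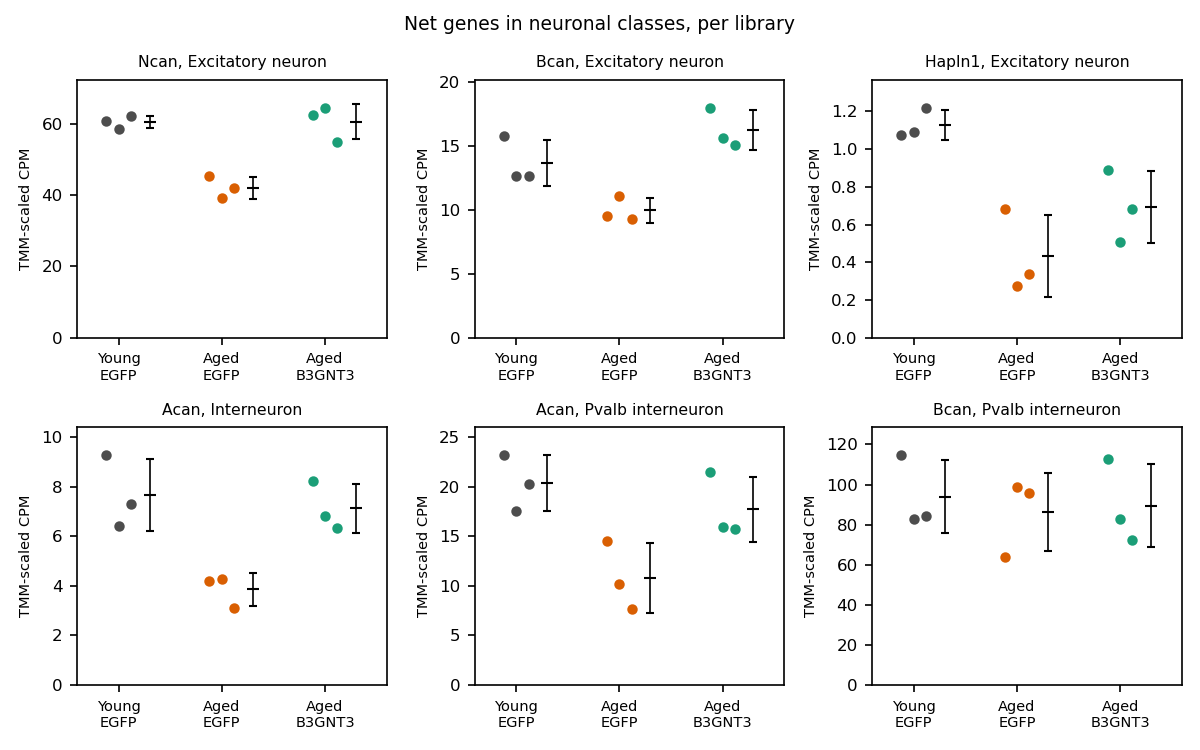
TMM-scaled CPM of net genes in neuronal classes, 1 point per library in the 3 groups, with the mean and SD of each group (n = 3) marked to the right of its points. The Aged_EGFP libraries lie under the others for Ncan and Bcan in excitatory neurons and for Acan in interneurons and Pvalb interneurons, while Bcan in Pvalb interneurons overlaps between all groups.

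In astrocytes 1 of 8 members was called with age (background 11.8% of 12628 genes, with 7.08% lower), and the median of the 8 was -0.15 beside -0.0024 over all genes. Bcan, Ncan, Ptprz1 and Cspg5, all at high levels there, were not called, with log2 differences of 0.32 (SE 0.15), -0.38 (SE 0.24), 0.35 (SE 0.14) and 0.39 (SE 0.19). The called gene was Tnr, at 133.5, 124.5 and 139.1 CPM in Young_EGFP, 54.4, 67.6 and 54.9 CPM in Aged_EGFP and 77.5, 106.6 and 67.8 CPM in Aged_B3GNT3. Young_EGFP lay above both aged groups without overlap, and with age Tnr fell by 1.16 on the log2 scale (SE 0.17, adjusted p = 0.00097).

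The Tnr level in astrocytes lay under that of microglia. In microglia Tnr moved in the same order, at 181.5 ± 21.9 CPM in Young_EGFP, 96.5 ± 31.9 CPM in Aged_EGFP and 165.6 ± 9.39 CPM in Aged_B3GNT3 (SD, n = 3), and 0 CPM remained in astrocytes after the estimate had been subtracted. Excitatory neuron markers in astrocytes had summed levels of 274.8 to 320.4 CPM, 122.9 to 263.1 CPM and 218.0 to 265.6 CPM in the same order, and 2 of 7 were called lower with age. Oligodendrocyte markers, of which 2 of 7 were called lower, summed to 433.3 to 564.6 CPM in Young_EGFP and 260.7 to 366.5 CPM in Aged_EGFP, without overlap. The OPC markers, from the class of highest Tnr, summed to 841.1 to 1054 CPM and 925.1 to 1141 CPM, which overlapped, with 1 of 3 tested called lower. In OPCs, the class of highest Tnr, the gene was at 6185, 4932 and 6012 CPM in Young_EGFP and 5013, 6501 and 5786 CPM in Aged_EGFP, which overlapped, with a log2 difference of 0.01 (SE 0.14, adjusted p = 0.974). The cause of the Tnr difference in astrocytes was not tested beyond the subtraction.

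In oligodendrocytes 4 of 9 members were called with age (background 20.5% of 13219 genes), 3 of them lower (9.61%) and 1 higher (10.9%), and the median of the 9 was -0.71 beside 0.03 over all genes. Hapln2, the only member with its highest level in this class, was at 168.9, 132.4 and 132.6 CPM in Young_EGFP, 159.9, 267.0 and 260.2 CPM in Aged_EGFP and 195.2, 200.2 and 162.0 CPM in Aged_B3GNT3. Aged_EGFP replicate 1 overlapped the Young_EGFP libraries while replicates 2 and 3 lay above them, and the log2 difference was 0.66 (SE 0.19, adjusted p = 0.0250). It was 0.47 after subtraction of free RNA (adjusted p = 0.174), and the call was lost without Aged_EGFP replicate 2 or 3 or Young_EGFP replicate 2 or 3 (adjusted p 0.0866 to 0.0983). The oligodendrocyte markers moved with Hapln2: 2 of 7 were called higher with age, with a median of 0.23, and their sum ran from 11255 to 13050 CPM in Young_EGFP and from 13242 to 14486 CPM in Aged_EGFP, without overlap. Their part in the Hapln2 result was not tested.

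The other 3 called genes have their highest levels in OPCs. Tnr was at 150.4, 130.8 and 139.0 CPM in Young_EGFP, 69.4, 89.1 and 46.4 CPM in Aged_EGFP and 96.7, 151.6 and 94.1 CPM in Aged_B3GNT3, with a log2 difference with age of -1.04 (SE 0.23, adjusted p = 0.00839). Vcan had a mean of 18.4 CPM in Young_EGFP and 7.88 CPM in Aged_EGFP (-1.24, SE 0.34, adjusted p = 0.0222), and Ptprz1 had means of 80.7 and 43.7 CPM (-0.90, SE 0.29, adjusted p = 0.0456). For all 3 the Young_EGFP libraries lay above those of Aged_EGFP. Over the 9 libraries the mean of each was under its mean in microglia, and their means after subtraction of free RNA were 0 CPM for Tnr, 0.122 CPM for Vcan and 0 CPM for Ptprz1.

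Markers of other cells moved with these genes in the oligodendrocytes. Of the OPC markers 2 of 4 tested were called lower with age, of the astrocyte markers 4 of 7 and of the excitatory neuron markers 3 of 7, while 1 astrocyte marker was called higher. The summed OPC markers ran from 126.0 to 209.4 CPM in Young_EGFP, 58.7 to 113.1 CPM in Aged_EGFP and 95.5 to 159.0 CPM in Aged_B3GNT3. The part of these markers in the Tnr, Vcan and Ptprz1 results was not tested beyond the subtraction. The Vcan call was lost without Aged_EGFP replicate 3 or Young_EGFP replicate 2 (adjusted p 0.0854 to 0.102) or with no upper limit on genes per nucleus (adjusted p = 0.0561). The Ptprz1 call was lost without Young_EGFP replicate 1 or 2, Aged_EGFP replicate 2 or 3 or Aged_B3GNT3 replicate 1 (adjusted p 0.0523 to 0.135), or with only the 2 groups compared in the fit (adjusted p = 0.0517).

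In OPCs, where 5 of the members had their highest level, none of 9 members was called with age (background 0.64% of 10467 genes) by edgeR. That background rests on 67 genes and moved with the libraries. It was 1178 genes without Aged_EGFP replicate 1, 1 without Aged_EGFP replicate 2 or 3 and 0 without Young_EGFP replicate 2 or 3. Summed oligodendrocyte markers in OPCs ran from 1009 to 2134 CPM in Young_EGFP and from 417.3 to 2037 CPM in Aged_EGFP. Cspg5 and Ptprz1 had an unadjusted p under 0.05, 2 of the 9 (background 17.8%), and DESeq2 called 1. The nearest was Cspg5, at 530.0, 390.6 and 374.3 CPM in Young_EGFP and 524.2, 816.0 and 714.4 CPM in Aged_EGFP. These groups overlapped, and the log2 difference was 0.67 (SE 0.18, adjusted p = 0.0935, edgeR). Acan in OPCs was at 30.4, 20.6 and 43.0 CPM in Young_EGFP and 15.5, 32.1 and 28.5 CPM in Aged_EGFP, which overlapped, with a log2 difference of -0.25 (SE 0.33).

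**Figure D4:**
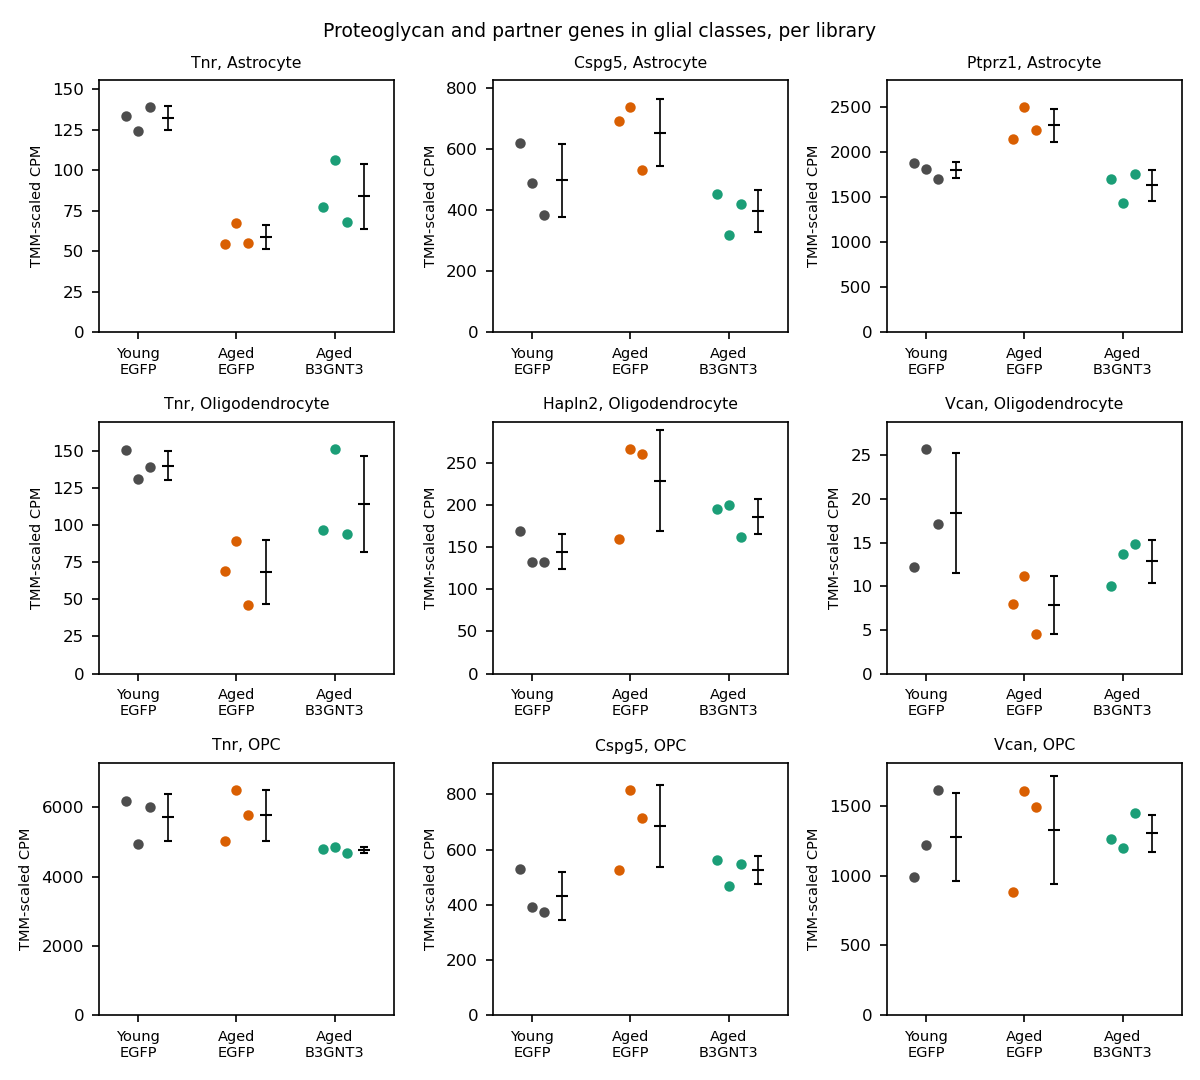
TMM-scaled CPM of 5 of the genes in glial classes, 1 point per library in the 3 groups, with the mean and SD of each group (n = 3) marked to the right of its points. Tnr is lower in Aged_EGFP than in Young_EGFP in astrocytes and oligodendrocytes, where its level is under that of microglia. In OPCs, where Tnr is highest, these groups overlap. The cause was not tested.

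To ask whether B3GNT3 in brain endothelial cells was followed by changes in these genes, Aged_B3GNT3 was compared with Aged_EGFP in the same fits. Of 53 pairs of member and class, 2 were called higher and 1 lower. Members whose aged groups did not overlap numbered 3 of 10 in excitatory neurons (24.8% of all genes), 1 of 9 in interneurons (22.5%), 1 of 8 in Pvalb interneurons (19%), 3 of 8 in astrocytes (24.1%), 1 of 9 in oligodendrocytes (29.4%) and 2 of 9 in OPCs (16.7%). Because the Aged_EGFP libraries serve in both comparisons, a low or high value in them enters both with opposite sign, and the values of the groups are therefore given side by side above.

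In excitatory neurons Bcan and Ncan, 2 of 10 members, were higher in Aged_B3GNT3 (background 2.54% called, 0.953% higher), and the median of the 10 was 0.37 beside 0.01 over all genes. That background rests on 430 genes and moved with the libraries: without Aged_EGFP replicate 2, edgeR called 0 genes, while 2710 had an unadjusted p under 0.05. The count was 4 and 5 without Aged_B3GNT3 replicate 2 and 1, 24 without Young_EGFP replicate 3, 168 without Young_EGFP replicate 2, 277 without Aged_EGFP replicate 3, 1132 without Aged_EGFP replicate 1 and 1499 without Aged_B3GNT3 replicate 3. After subtraction of free RNA it was 40. Ncan rose by 0.53 on the log2 scale (SE 0.10, adjusted p = 0.0331), with every Aged_B3GNT3 library above every Aged_EGFP library, and after subtraction of free RNA the difference was 0.58 (adjusted p = 0.0464). Compared as means, Ncan was higher in 14 of the 15 excitatory sub-types, which share libraries and free RNA, and Bcan in 12. The Ncan call was lost without Aged_EGFP replicate 2, Aged_B3GNT3 replicate 1 or 2 or Young_EGFP replicate 3 (adjusted p 0.0602 to 0.159). It was also lost with only the 2 groups compared in the fit (adjusted p = 0.0552).

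Bcan in excitatory neurons rose by 0.70 (SE 0.14, adjusted p = 0.0356) without overlap of the groups. The difference was 0.32 after subtraction of free RNA (adjusted p = 0.861) and 0.62 without the 3 hippocampal sub-clusters (adjusted p = 0.0704). Leaving out Aged_EGFP replicate 2 or 3, Aged_B3GNT3 replicate 1 or 2 or Young_EGFP replicate 3 also lost the call (adjusted p 0.0607 to 0.159), as did a fit of only the 2 groups compared (adjusted p = 0.0552). Markers of other cells moved in these neurons too. Of 7 oligodendrocyte markers 2 were called higher with AAV-B3GNT3, and their summed level ran from 115.7 to 160.3 CPM in Aged_EGFP and from 192.6 to 228.8 CPM in Aged_B3GNT3, without overlap. Of 7 astrocyte markers 0 were called, with a median log2 change of 0.63. Their part in the Bcan and Ncan results was not tested beyond the subtraction.

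In astrocytes 1 of 8 members was called (background 4.97%, with 2.87% lower), and the median of the 8 was -0.31 beside 0.01 over all genes. DESeq2 called 2. That background rests on 628 genes, and 9 were called after subtraction of free RNA. Leaving out 1 library gave from 17, without Aged_B3GNT3 replicate 2, to 755, without Aged_EGFP replicate 1. The member called by edgeR was Cspg5, at 693.2, 737.8 and 530.4 CPM in Aged_EGFP and 451.9, 317.6 and 421.2 CPM in Aged_B3GNT3, beside 620.0, 488.9 and 382.3 CPM in Young_EGFP. The aged groups did not overlap, and Cspg5 fell by 0.72 on the log2 scale (SE 0.19, adjusted p = 0.0452). Ptprz1, the other membrane proteoglycan, was at 2145, 2504 and 2250 CPM in Aged_EGFP and 1700, 1438 and 1757 CPM in Aged_B3GNT3, also without overlap, with a difference of -0.50 (SE 0.14) that did not pass the threshold (adjusted p = 0.0514, edgeR). Tnr in astrocytes had a difference of 0.52 (SE 0.17, adjusted p = 0.0951, edgeR), with aged groups that did not overlap. For Cspg5 the difference was -0.72 after subtraction of free RNA (adjusted p = 0.157), and the call was lost without Aged_EGFP replicate 1 or 2, any one of the Aged_B3GNT3 libraries or Young_EGFP replicate 2 (adjusted p 0.0624 to 0.221). Summed OPC markers in astrocytes ran from 925.1 to 1141 CPM in Aged_EGFP and from 657.8 to 871.1 CPM in Aged_B3GNT3, without overlap, with 1 of 3 tested called lower and 1 higher, and 1 of 7 astrocyte markers was called lower, with a list median of -0.33. Their part in the Cspg5 result was not tested.

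No member was called with AAV-B3GNT3 in the other 4 classes, where the background was 1.73% in interneurons, 0.522% in Pvalb interneurons, 7.56% in oligodendrocytes and 0.143% in OPCs. At an unadjusted p under 0.05 there were 2 members in interneurons (background 19.6%), 2 in Pvalb interneurons (14.7%), 3 in oligodendrocytes (26.7%) and 1 in OPCs (11.9%), and DESeq2 called 1, Tnr in oligodendrocytes. Acan in interneurons had a log2 difference of 0.88 (SE 0.27, adjusted p = 0.0937, edgeR) and in Pvalb interneurons of 0.77 (SE 0.29, adjusted p = 0.208), both with groups that did not overlap. Tnr in oligodendrocytes had a difference of 0.74 (SE 0.23, adjusted p = 0.0618).

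Whether an effect differed between classes was tested directly for 4 pairs of classes, with the mouse as a block. With age, 5 differences were called over the 4 pairs, and with AAV-B3GNT3 3 were called. With age Tnr differed between astrocytes and OPCs by 1.14 on the log2 scale (OPC minus astrocyte, SE 0.15, adjusted p = 0.000365, background 2.04%), between oligodendrocytes and OPCs by -1.06 (SE 0.23, adjusted p = 0.0300, background 2.3%) and between excitatory neurons and astrocytes by 1.15 (SE 0.16, adjusted p = 0.000345, background 5.78%). Bcan and Hapln1 also differed between excitatory neurons and astrocytes, by -0.68 (SE 0.13, adjusted p = 0.0044) and -1.40 (SE 0.30, adjusted p = 0.0099). With AAV-B3GNT3, Tnr differed by -0.74 between OPCs and astrocytes (SE 0.16, adjusted p = 0.0362, background 0.671%), and Tnr and Bcan differed between excitatory neurons and astrocytes by -0.72 (SE 0.16, adjusted p = 0.0275, background 2.44%) and 0.77 (SE 0.13, adjusted p = 0.0047). The Tnr difference with AAV-B3GNT3 between OPCs and astrocytes was lost in 7 of 9 fits that left out 1 library, all but those without Aged_EGFP replicate 1 or Young_EGFP replicate 2 (-0.88 to -0.57, adjusted p 0.0523 to 0.223 where lost). That between excitatory neurons and astrocytes was lost in 3 of 9, without Aged_EGFP replicate 2 or 3 or Aged_B3GNT3 replicate 2 (adjusted p 0.0859 to 0.145). The Tnr difference with age between oligodendrocytes and OPCs was lost in 4 of 9, without Aged_EGFP replicate 3 or any one of the Young_EGFP libraries (adjusted p 0.0636 to 0.131). Of 36 differences in each comparison 0 were called by edgeR after subtraction of the free RNA estimate, with 2 and 5 at an unadjusted p under 0.05, and the subtraction leaves Tnr at 0 CPM in astrocytes and oligodendrocytes. No member was called between excitatory neurons and interneurons (background 0.456% with age and 0% with AAV-B3GNT3), where 2 and 3 of 10 had an unadjusted p under 0.05 (background 11% and 6.55%). Nor was one called with AAV-B3GNT3 between OPCs and oligodendrocytes (background 0.0373%), where 3 of 10 had an unadjusted p under 0.05 (background 8.91%).

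The other genes of the pathway were taken from a list of 56 genes that build, sulfate, bind or cut chondroitin and hyaluronan, of which 55 were in the tables. With age, 8 of 49 tested in excitatory neurons were called, all lower (background 14.1% called, 6.72% lower), with a list median of -0.29 beside 0.02 over all genes. Timp2, an inhibitor of metalloproteinases, was at 19.5 CPM in Young_EGFP and 10.6 CPM in Aged_EGFP (-0.87, SE 0.17, adjusted p = 0.00997), and Cemip, a hyaluronan-degrading factor, was at 63.5 and 43.4 CPM (-0.55, SE 0.11, adjusted p = 0.0137). In interneurons 1 of 39 was called (background 5.6%), Has3, a hyaluronan synthase, at 3.73 and 1.13 CPM (-1.75, SE 0.47, adjusted p = 0.0405). Its Aged_EGFP libraries were at 1.20, 0.534 and 1.65 CPM, so the call rests on few UMIs. Without Aged_EGFP replicate 2 only 8 of 13185 genes were called with age in interneurons. Of 29 in Pvalb interneurons and 41 in OPCs 0 were called by edgeR (background 1.08% and 0.64%), with 2 and 14 at an unadjusted p under 0.05 (background 19.2% and 17.8%). The highest level of Cemip among the tested classes was that of Pvalb interneurons, at 564.4 CPM.

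In astrocytes 6 of 39 pathway genes were lower with age and 0 higher (background 11.8% called, 7.08% lower), with a list median of -0.20. The leading 2, Chsy3, a chondroitin synthase, and Spock1, a testican proteoglycan, were at 122.4 and 81.9 CPM in Young_EGFP and 38.9 and 33.1 CPM in Aged_EGFP (-1.66, SE 0.19, adjusted p = 0.000423 for Chsy3; -1.31, SE 0.21, adjusted p = 0.0018 for Spock1). Both were at higher levels in microglia (135.2 and 123.3 CPM over the 9 libraries) and at 0.0378 and 0 CPM in astrocytes after subtraction of free RNA. In oligodendrocytes 9 of 40 were lower and 2 higher (background 9.61% and 10.9%), with a list median of -0.09. Of those that were higher, Adamts1, a protease that cuts lecticans, was at 5.62 CPM in Young_EGFP and 24.6 CPM in Aged_EGFP (2.12, SE 0.36, adjusted p = 0.00386), and Spock3, another testican, was at 660.5 and 1101 CPM (0.74, SE 0.19, adjusted p = 0.0173). Of those that were lower, Cemip and the hyaluronidase Tmem2 had log2 differences of -1.97 (SE 0.31) and -1.43 (SE 0.23), and were at 0 and 0.374 CPM after subtraction of free RNA.

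With AAV-B3GNT3, Rtn4rl1, a receptor that binds chondroitin sulfate chains, was higher in excitatory neurons, where 3 of 49 were called (background 2.54%). It was at 65.7 CPM in Aged_EGFP and 114.7 CPM in Aged_B3GNT3 (0.80, SE 0.18, adjusted p = 0.0437). Sema3a, a guidance cue held in nets, was lower there (58.3 and 39.7 CPM; -0.56, SE 0.12, adjusted p = 0.0437), as was B3galt6, an enzyme of the linker between chain and protein (1.71 and 0.786 CPM; -1.13, SE 0.25, adjusted p = 0.0437). Without Aged_EGFP replicate 2 edgeR called 0 genes in excitatory neurons, so these 3 calls were lost. In astrocytes Spock1 and Chsy3, 2 of 39, were higher (background 4.97% called), by 1.07 (SE 0.22) and 0.94 (SE 0.19). In microglia the Aged_EGFP and Aged_B3GNT3 means were 82.1 and 134.9 CPM for Spock1 and 74.0 and 139.2 CPM for Chsy3. The cause of the astrocyte differences was not tested. In interneurons, Pvalb interneurons and OPCs 0 pathway genes were called by edgeR, with 8 of 39, 5 of 29 and 5 of 41 at an unadjusted p under 0.05 (background 19.6%, 14.7% and 11.9%). In oligodendrocytes 3 of 40 were higher and 1 lower (background 7.56% called), led by Tmem2 (1.27, SE 0.23) and Cemip (1.42, SE 0.31), and Spock3 was lower (-0.91, SE 0.19, adjusted p = 0.0177). After subtraction of free RNA the means over all libraries in this class were 0.374 CPM for Tmem2 and 0 CPM for Cemip. Of 7 oligodendrocyte markers there 3 were called lower and 0 higher with AAV-B3GNT3, with a median log2 change of -0.44. They summed to 13242 to 14486 CPM in Aged_EGFP and 10915 to 12274 CPM in Aged_B3GNT3, without overlap. Of 7 astrocyte, 7 excitatory neuron and 4 OPC markers tested in oligodendrocytes 0 were called, with median log2 changes of 0.44, 0.29 and 0.23. The part of all these markers in these results was not tested.

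Brain endothelial cells, the target of the virus, numbered 769 over the 9 libraries and the members were not tested in them. They held 442 Tnr, 336 Ptprz1 and 136 Cspg5 UMIs, or 214.3 ± 67.1, 152.1 ± 78.4 and 62.5 ± 20.8 CPM, close to the levels of pericytes (225.3, 105.4 and 63.6 CPM). The BEC means of Cspg5 were 71.1 CPM in Young_EGFP, 59.1 CPM in Aged_EGFP and 57.4 CPM in Aged_B3GNT3. All these levels are given before subtraction of free RNA. The free RNA estimate was 28.7 to 51.9% of UMIs in BECs and 27.3 to 49.6% in pericytes. How far these levels came from other cells was not tested.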

How the data were processed

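Nuclei were stained with Hoechst and for NeuN, sorted as single Hoechst-positive events, and sequenced with 10x Genomics 3′ chemistry. The authors deposited raw UMI counts per gene and nucleus for each library, aligned to mm10 with Cell Ranger (version 4.0.0 per the submitters' processing notes, 7.2.0 in the matrix headers), and no cell annotation was used. Barcodes with 200 to 5000 genes and under 10% mitochondrial UMIs were kept (74895 of 77823), of which 4659 were removed as doublets marked against simulated pairs (5.07 to 8.213% of barcodes per library). The libraries were clustered together on 2000 variable genes without the members and pathway genes (15 principal components, resolution 0.3, scanpy 1.11.5, leidenalg 0.10.2). A cluster was named where at least 3 markers of 1 class led it.

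Counts were summed per library and class. The comparisons used edgeR 4.0.16 (R 4.3.3) with TMM scaling, filterByExpr at a minimum count of 10 and a quasi-likelihood test over all 3 groups, without covariates. Pairs of classes were compared by an interaction term with the mouse as a block. P-values were adjusted by Benjamini-Hochberg over all genes of a class, at 0.05. Simulated counts were put through the fit for the age comparison in astrocytes, OPCs and Pvalb interneurons only. They did not cover the AAV-B3GNT3 comparison, the differences between classes or free RNA. The study's own tool, DESeq2 (1.42.0 here), was an alternative, as were other scaling, filters, clustering, groups in the fit, a replicate block, subtraction of free RNA and leaving out each library. Shares of nuclei used nuclei thinned to 2000 UMIs. For a class without a UMI of a gene, the limit given is 3 counts of its total, which covers counting error only. A pathway gene was named if it was 1 of the 2 with the smallest p in each direction, class and comparison. All 10 members were tested wherever they passed the low-count filter, but not every value is printed. The members, lists and tests were chosen with earlier results of these data known. The 3 mice of a group are separate animals by their labels, and the p-values measure the spread between their libraries. Sequences came from RefSeq and positions from GENCODE on GRCm38.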

Additional observations from a re-analysis of the deposited data

Results flagged for a closer look

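The effects of Tnr, Bcan and Hapln1 differed between classes in 8 tests of the difference itself. With age, the log2 change of Tnr in OPCs exceeded that in astrocytes by 1.14, the change in oligodendrocytes minus that in OPCs was -1.06, and the change in excitatory neurons exceeded that in astrocytes by 1.15. With AAV-B3GNT3, the change of Tnr in OPCs minus that in astrocytes was -0.74 and that in excitatory neurons minus astrocytes was -0.72. For Bcan, excitatory neurons minus astrocytes gave -0.68 with age and 0.77 with AAV-B3GNT3, and for Hapln1 they gave -1.40 with age. In each of these differences at least one class held the gene at a level under that of microglia.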

How the results depend on the processing

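With age, 9 pairs of member and class were called, and 6 to 13 under other tools, scaling, filters, clustering and groups in the fit, but 1 after subtraction of free RNA. That 1 was Ncan in excitatory neurons. Tnr in astrocytes, Tnr, Vcan and Ptprz1 in oligodendrocytes and Hapln1 in excitatory neurons did not pass the low-count filter after the subtraction. These called pairs were therefore not tested after it. With AAV-B3GNT3, 3 pairs were called, against 5 by DESeq2, 11 without the low-count filter, 1 with only the 2 groups compared in the fit and 1 after subtraction of free RNA. Counts over all genes moved too. In excitatory neurons 430 were called with AAV-B3GNT3, 1357 by DESeq2, 1067 without the filter, 113 with only the 2 groups and 40 after subtraction. In astrocytes these counts were 628, 690, 1319, 398 and 9. With a replicate block the counts were 8 with age and 5 with AAV-B3GNT3. The labels give no shared litter or batch for a number, and deviations of same-numbered samples correlated over 0.1 in 11 of 54 pairs (r from -0.26 to 0.27). These held replicate 1 of Young_EGFP and Aged_B3GNT3 in all 6 classes (0.14 to 0.27), but replicate 1 of Aged_EGFP with neither. Differences between classes numbered 5 with age and 3 with AAV-B3GNT3, against 12 and 13 without the low-count filter and 0 and 0 after subtraction of free RNA. Counts over all genes were kept only for the main fits of these differences.

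Leaving out 1 library gave 3 to 15 calls with age, with 15 without Aged_EGFP replicate 1, 3 without Aged_EGFP replicate 3 or Young_EGFP replicate 2, 4 without Young_EGFP replicate 3 and 5 without Aged_EGFP replicate 2 or Young_EGFP replicate 1. Counts over all genes moved as well: in excitatory neurons 2388 genes were called with age, 3694 without Aged_EGFP replicate 1, 512 without Aged_EGFP replicate 2 and 275 without Young_EGFP replicate 3, and in astrocytes 1486 were called and 59 after subtraction of free RNA. Leaving out 1 library gave 0 to 4 with AAV-B3GNT3, with 0 without Aged_B3GNT3 replicate 1 or 2 and 1 without Aged_EGFP replicate 2 or Young_EGFP replicate 3. For differences between classes it gave 4 to 13 with age, with 13 without Aged_EGFP replicate 1, and 1 to 6 with AAV-B3GNT3, with 6 without Aged_EGFP replicate 1 and 1 without Aged_EGFP replicate 2 or Aged_B3GNT3 replicate 2. Subtraction of free RNA turned 7 directions: Bcan with age in excitatory neurons became 1.44, and the differences became -0.083 for Tnr in OPCs minus astrocytes, 0.081 in oligodendrocytes minus OPCs and -0.15 in excitatory neurons minus astrocytes, all with age, 1.52 with age and -0.11 with AAV-B3GNT3 for Bcan in excitatory neurons minus astrocytes, and 0.13 for Hapln1 with age in the same pair. The subtraction itself leaves Tnr at 0 in astrocytes and oligodendrocytes and Hapln1 at 0 in excitatory neurons, and the cause was not tested for Bcan. The share of Pvalb interneurons with an Acan UMI was 2.82% thinned and 12.7% without thinning. Among the classes for which free RNA was estimated, the 10 highest classes did not change with the subtraction. Depth limits Acan, Hapln1 in neurons and Hapln4, which rested on few UMIs per library.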
